A study of Homo sapiens with 24 samples.

Results

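The genes described here are the 3 peroxisome proliferator-activated receptors (PPARA, PPARD and PPARG), their partner RXRA, the coactivator gene PPARGC1A and 4 known target genes that act in fatty acid oxidation and fuel use (CPT1A, ANGPTL4, PDK4 and ACADVL). They were chosen by symbol, through the Ensembl identifiers of the deposited gene tables, and are 9 of the 37416 genes counted. The study transduced 4 established lines of breast cancer cells (BT549, HCC1806, MDAMB231, MDAMB468) with a lentiviral short hairpin RNA (shRNA). One hairpin, shADAR1, was directed at ADAR, the gene of the RNA-editing enzyme ADAR1, and the control hairpin was called shNT. Each of the 8 groups of line and hairpin had 3 libraries, so there were 24 in all. Cells of every group, controls included, were infected for 24 h, kept under puromycin at 2 µg/ml for 72 h and grown in serum, and total RNA depleted of ribosomal RNA was sequenced. The labels name 1 hairpin per target without its sequence. The series title ties ADAR1 to lipid remodelling and ferroptosis, and the comparison described here asks whether the level of these genes differed between the hairpins and between the lines.

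PPARs are nuclear receptors that fatty acids and their derivatives can activate. Each binds DNA as a pair with a retinoid X receptor at a direct repeat of a short half-site, and recruits coactivators such as PGC-1alpha, the product of PPARGC1A, when a ligand is bound. PPARA is best known as the driver of fatty acid oxidation in liver, PPARD has a similar role in muscle and many other tissues, and PPARG directs fat cell differentiation and lipid storage. Among their targets, CPT1A carries long-chain fatty acids into the oxidation pathway at the outer mitochondrial membrane, ACADVL catalyses the first oxidation step on very long chains, PDK4 restrains pyruvate dehydrogenase and so spares glucose, and ANGPTL4 is a secreted inhibitor of lipoprotein lipase.

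Promoter windows were taken for all 9 genes from RefSeq (GRCh38.p14), from 250 bases before to 50 bases after each listed start, which gave 18 windows of 300 bases. PPARA and ANGPTL4 are shown because the knockdown results turn on them, and the first window of PPARG because it held the half-site. The letters searched were the half-site AGGTCA and its direct repeat, AGGTCA, 1 base of any kind and AGGTCA again, on both strands. Capitals mark a half-site, and a window with no capitals held none. The windows, on the plus strand, are PPARA at chr22:46150276-46150575, ANGPTL4 at chr19:8363905-8364204 and PPARG at chr3:12287118-12287417.
PPARA: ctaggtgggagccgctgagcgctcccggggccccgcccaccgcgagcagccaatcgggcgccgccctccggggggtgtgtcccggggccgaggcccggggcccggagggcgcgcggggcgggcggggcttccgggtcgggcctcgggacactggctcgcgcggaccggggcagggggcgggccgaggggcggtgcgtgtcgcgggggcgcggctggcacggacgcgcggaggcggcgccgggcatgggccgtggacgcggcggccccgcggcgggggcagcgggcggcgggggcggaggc
ANGPTL4: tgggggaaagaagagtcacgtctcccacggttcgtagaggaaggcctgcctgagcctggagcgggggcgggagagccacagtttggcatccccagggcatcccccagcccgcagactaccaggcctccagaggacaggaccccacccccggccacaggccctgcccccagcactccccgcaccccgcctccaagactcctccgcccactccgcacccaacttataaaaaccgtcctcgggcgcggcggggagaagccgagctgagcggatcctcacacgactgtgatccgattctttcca
PPARG: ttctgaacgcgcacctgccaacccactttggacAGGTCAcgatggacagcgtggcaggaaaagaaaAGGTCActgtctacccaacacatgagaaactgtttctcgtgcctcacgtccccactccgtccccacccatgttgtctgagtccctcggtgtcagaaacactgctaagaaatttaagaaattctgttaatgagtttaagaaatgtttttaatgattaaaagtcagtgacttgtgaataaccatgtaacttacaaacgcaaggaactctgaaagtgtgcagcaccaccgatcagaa
The PPARA window was 85.7% G and C, the ANGPTL4 window 66.3% and the PPARG window 45%, against a median of 58.7% over all promoters in the table. Half-sites were present in 3 of the 6 PPARG windows and in no window of the other genes. The PPARG windows at chr3:12288810-12289109 and chr3:12288820-12289119 overlap and hold the same half-site. None of the 18 windows held the full direct repeat. Over all 35116 promoter windows of the same length, 13.8% held a half-site and 0.0228% the direct repeat. These counts describe letters in short windows and say nothing of binding.

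Total counts per library ran from 10370645, in MDAMB231 shNT replicate 1, to 97218217. All 9 genes were among the 21352 tested, but PPARGC1A passed the filter on low counts through MDAMB231, and PDK4 had no more than 4 counts in any BT549 library. ADAR stood at 21.8% of the shNT mean in the shADAR1 libraries of MDAMB231, 26.1% in BT549, 33.1% in HCC1806 and 37.1% in MDAMB468, with no overlap between arms in any line. Epithelial markers summed to between 0.724 and 1.24 CPM in BT549 and to between 935 and 4040 CPM in the other lines. CPM are counts scaled to the library total, here adjusted by the trimmed mean of M-values. EPCAM and the keratins KRT18 and KRT19 were near 0 in BT549. In MDAMB231 the sum came mostly from keratins, with KRT8, KRT18 and KRT19 at means of 467, 223 and 282 CPM with shNT. Its CDH1 averaged 0.0739 CPM with shNT, beside 0.0952 in BT549, 251 in HCC1806 and 188 in MDAMB468. Its EPCAM averaged 8.95 CPM with shNT, against 300 in HCC1806 and 253 in MDAMB468. The basal keratins KRT5 and KRT14 were high only in HCC1806 and MDAMB468 among the 4 lines. Of the mesenchymal markers, VIM, ZEB1 and FN1 were highest in BT549 and MDAMB231, whereas CDH2 averaged 241 CPM in BT549 and 30.0 in HCC1806 with shNT and only 0.254 in MDAMB231. PGR stayed under 1 CPM on average in each group, ESR1 reached a mean of 23.8 CPM in HCC1806 shADAR1, and ERBB2 lay between 75.9 and 100 CPM. Leukocyte markers summed to at most 5.07 CPM, endothelial markers to at most 4.89 CPM, adipocyte markers to at most 4.71 CPM and hepatocyte markers to at most 0.144 CPM in any library.

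The largest differences among these genes were between lines. In shNT cells, PPARA was highest in MDAMB468, PPARD in MDAMB231 and HCC1806, PPARG and RXRA in HCC1806, and ANGPTL4 in BT549, while PPARGC1A and PDK4 were low and highest in MDAMB231. The knockdown differences were smaller. PPARA was lower with shADAR1 over the 4 lines together, by 0.28 ± 0.0683 on the log2 scale (SE). It was the 1 gene of the 9 to pass in the fit without pairing, where 2.96% of all genes passed for that mean. With replicate numbers treated as pairs, PPARA was also lower in BT549 and MDAMB231, and in MDAMB231 ANGPTL4 was higher while RXRA and CPT1A were lower, the CPT1A call being lost when any 1 of the 3 pairs was broken up. No gene of the 9 passed in HCC1806 or MDAMB468 under either fit. Of all genes, 0.0468% and 0.0375% passed in these 2 lines without pairing, and 2.10% and 1.66% with it. A count of 0 among 9 is thus near the share of all genes. In BT549 and MDAMB231, 5.14% and 11.4% of all genes passed with pairing.

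Levels are given as CPM scaled by the trimmed mean of M-values (TMM), as the mean ± SD of 3 libraries, and adjusted p-values come from the quasi-likelihood test of edgeR, corrected by Benjamini-Hochberg over all 21352 genes. Lines differed at most genes: in shNT cells, 63.5% of all genes passed the 0.05 threshold between BT549 and HCC1806, 56.5% between BT549 and MDAMB231, 61.0% between BT549 and MDAMB468, 59.0% between HCC1806 and MDAMB231, 62.9% between HCC1806 and MDAMB468, and 61.8% between MDAMB231 and MDAMB468. Of the 9 genes, 6, 9, 7, 7, 6 and 9 passed in these 6 comparisons, in the same order. A called difference between lines was therefore the usual state of a gene, and the sizes and the order of the levels carry the description. The counts for the comparisons with MDAMB231 include PPARGC1A, which passed the filter on low counts through that line. Its calls there were thus not independent of the filter. In bulk RNA, fewer cells with a transcript and less of it per cell cannot be told apart.

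**Figure D1:**
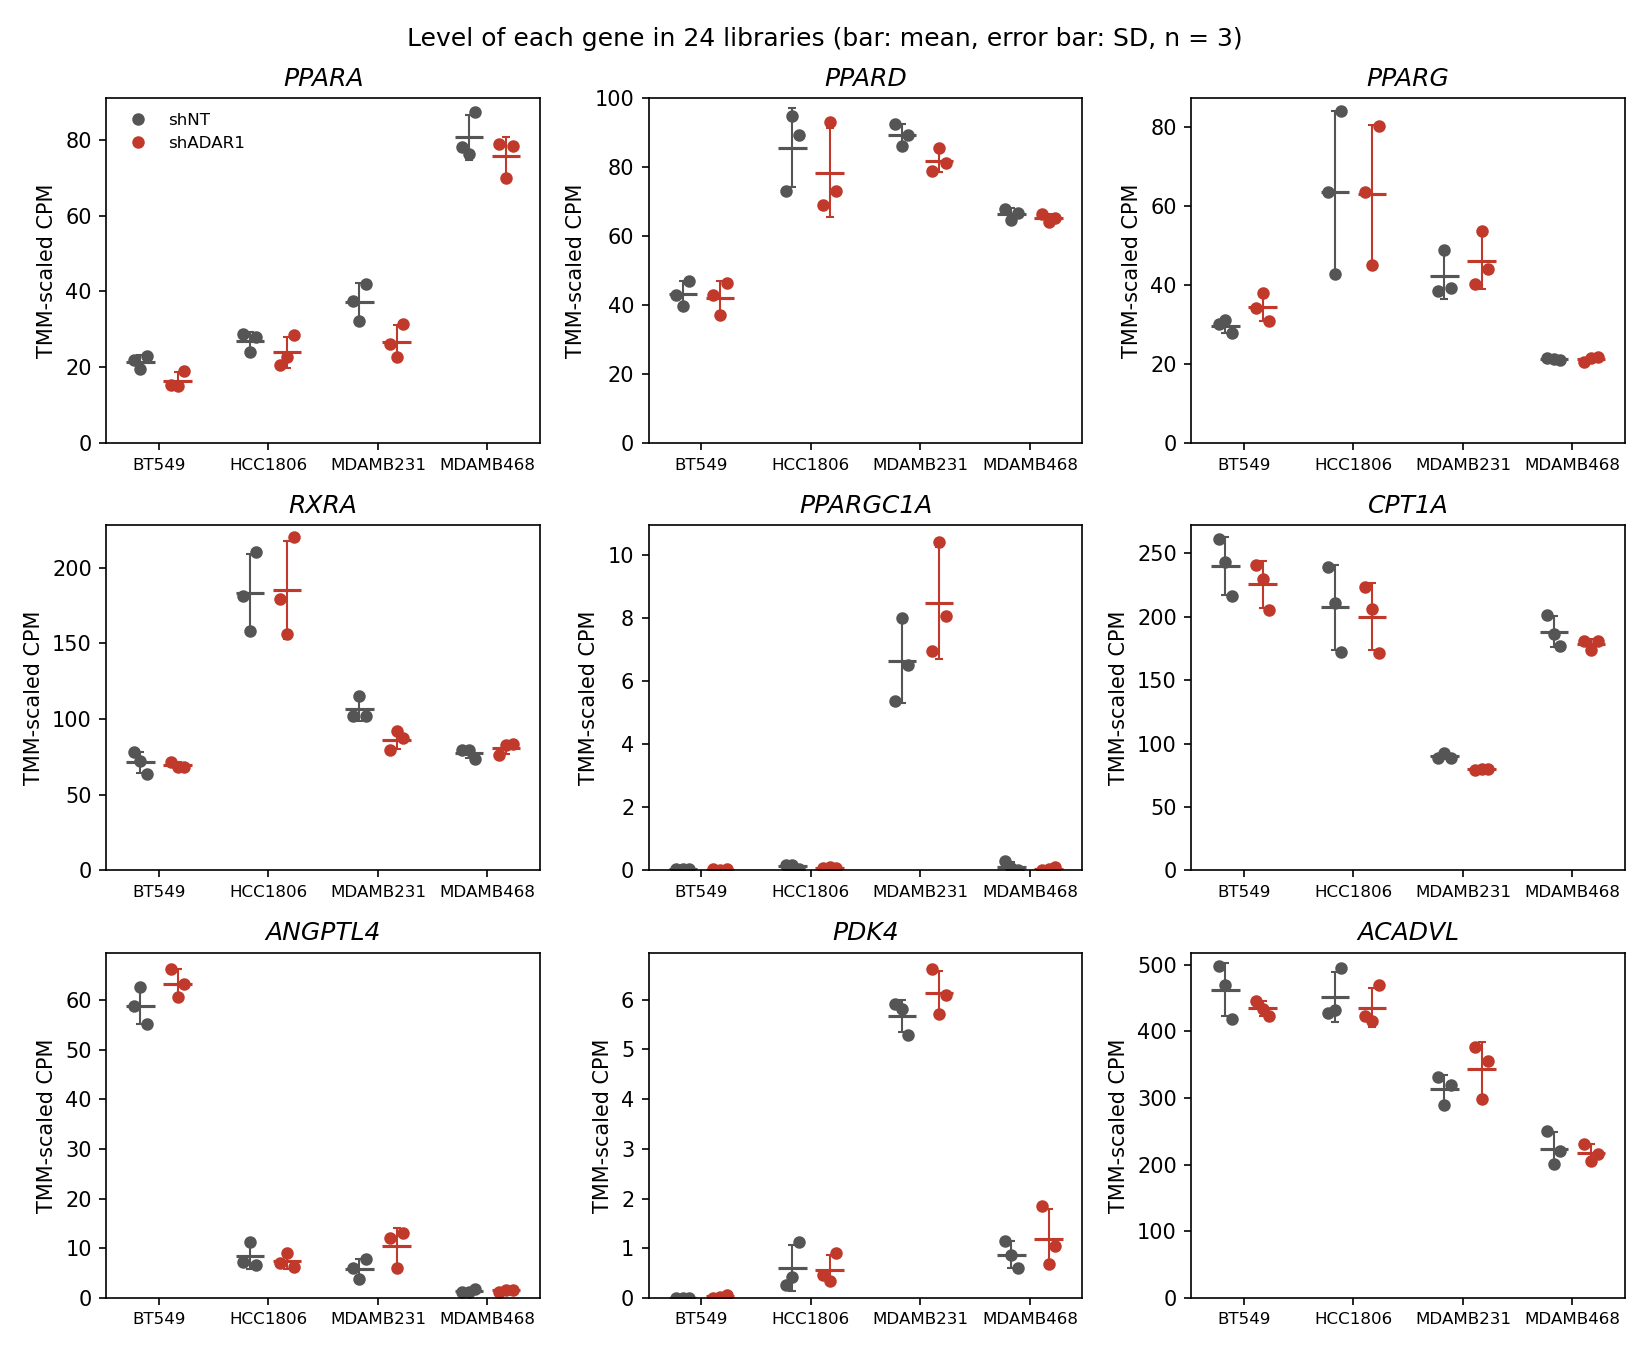
TMM-scaled CPM of the 9 genes (vertical axes, each from 0) in the 4 lines (horizontal axes), with shNT in grey and shADAR1 in red. Points are libraries, horizontal bars are means and error bars are SDs of 3 libraries. The lines stand further apart than the hairpins for most genes, as for ANGPTL4, where the BT549 shNT mean is 58.9 and the MDAMB468 shNT mean is 1.43.

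Among the receptors, PPARA (ENSG00000186951, chromosome 22, 46150521 to 46243756, plus strand) had the widest range. Its shNT libraries held 78.2, 76.3 and 87.4 CPM in MDAMB468, 37.5, 32.3 and 42.0 in MDAMB231, 28.7, 24.1 and 28.0 in HCC1806, and 21.9, 19.4 and 22.9 in BT549. The means were 80.7 ± 5.94, 37.2 ± 4.86, 26.9 ± 2.46 and 21.4 ± 1.79 CPM, a 3.77-fold range. MDAMB468 stood clear of the other lines, and each step down that order passed (edgeR adjusted p = 2.28e-07, 0.0056 and 0.0399). The last step, HCC1806 over BT549, lost its call in 7 of 15 alternatives, where its adjusted p ranged up to 0.151.

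PPARD (ENSG00000112033, chromosome 6, 35342558 to 35428191, plus strand) varied least among the 3 receptors, over a 2.06-fold range. Its shNT means were 89.4 ± 3.29 CPM in MDAMB231, 85.7 ± 11.4 in HCC1806, 66.5 ± 1.56 in MDAMB468 and 43.3 ± 3.69 in BT549. The difference between the first pair did not exceed the spread (edgeR adjusted p = 0.675), and the other steps passed at 0.00552 and 3.44e-05.

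PPARG (ENSG00000132170, chromosome 3, 12287368 to 12434356, plus strand) had shNT means of 63.6 ± 20.7 CPM in HCC1806, 42.3 ± 5.75 in MDAMB231, 29.7 ± 1.74 in BT549 and 21.2 ± 0.346 in MDAMB468. The HCC1806 libraries were far apart, at 63.6, 42.9 and 84.2 CPM, and the matching shADAR1 libraries followed them at 63.5, 45.2 and 80.4 CPM. The steps passed (edgeR adjusted p = 0.0108, 0.025 and 0.0317). The step from HCC1806 to MDAMB231 lost its call without HCC1806 shNT replicate 3 (adjusted p = 0.14). That from MDAMB231 to BT549 lost it without BT549 shNT replicate 1 or 3 or MDAMB231 shNT replicate 2 (0.0548, 0.0805 and 0.131), and that from BT549 to MDAMB468 without BT549 shNT replicate 1 or 2 or any 1 of the MDAMB468 shNT libraries (0.0519 to 0.08).

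Per kilobase of listed exon, which allows levels of different genes to be set side by side, PPARD had the highest mean of the 3 receptors in every shNT group. It made up 51.5 ± 2.91% of their sum in BT549, with 52.2 ± 9.18% for HCC1806, 59.7 ± 2.80% for MDAMB231 and 55.5 ± 0.811% for MDAMB468. In HCC1806 the spread covers the difference from PPARG, which in shNT replicate 3, at 20.8 per kilobase, was above PPARD. PPARG made up 39.0 ± 3.39%, 41.7 ± 9.12%, 31.1 ± 3.83% and 19.5 ± 0.668% in the same order. PPARA made up 9.48 ± 0.524%, 6.10 ± 0.781%, 9.25 ± 1.32% and 25.0 ± 1.37%, so that it exceeded PPARG in MDAMB468 and was the lowest of the 3 in the other lines. The listed length is the union of all annotated exons, 11986 bases for PPARA against 4457 for PPARD and 4046 for PPARG, and a line that uses a shorter transcript would have its level per kilobase understated.

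RXRA (ENSG00000186350, chromosome 9, 134317098 to 134440585, plus strand), the shared dimer partner, held 183 ± 26.3 CPM in HCC1806, 106 ± 7.35 in MDAMB231, 77.6 ± 3.47 in MDAMB468 and 71.4 ± 7.18 in BT549. The first 2 steps passed by edgeR (adjusted p = 2.64e-06 and 0.00137) and the last did not (0.373). HCC1806 was therefore highest for both PPARG and RXRA, and per kilobase its RXRA level, 16.9 ± 2.43, was near its PPARG level, 15.7 ± 5.11.

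PPARGC1A (ENSG00000109819, chromosome 4, 23755041 to 23904089, minus strand) was detected at a level above a few reads in MDAMB231 alone among the 4 lines. There its shNT libraries held 5.35, 7.99 and 6.52 CPM, from 58, 359 and 295 counts. The other 9 shNT libraries had 0 to 8 counts each, and the other shADAR1 libraries 0 to 7. The MDAMB231 mean was 6.62 ± 1.32 CPM, beside 0.127 ± 0.0767 in HCC1806, the next line, from 4, 8 and 2 counts. The gene passed the filter through MDAMB231, so the difference is given as a description, and at counts this low the order of the other 3 lines was not resolved.

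CPT1A (ENSG00000110090, chromosome 11, 68754620 to 68844410, minus strand), the gate of mitochondrial fatty acid entry, was abundant and lowest in MDAMB231. Its shNT means were 240 ± 22.5 CPM in BT549, 207 ± 33.7 in HCC1806, 188 ± 12.1 in MDAMB468 and 89.9 ± 2.45 in MDAMB231. The first 3 lines did not differ between neighbours beyond their spread (edgeR adjusted p = 0.0891 and 0.262). BT549 was nevertheless above MDAMB468, with a log2 difference of 0.35 that passed the same test (adjusted p = 0.00656). That call held in 15 of 15 alternatives. The step down to MDAMB231 was 1.06 on the log2 scale (adjusted p = 1.06e-08). The step from BT549 to HCC1806 passed in 4 of 15 alternatives, each of which left out 1 library.

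ACADVL (ENSG00000072778, chromosome 17, 7217125 to 7225273, plus strand) was the most abundant of the 9 genes per kilobase in each of the 8 groups. Its shNT means were 462 ± 40.3 CPM in BT549, 452 ± 37.5 in HCC1806, then 314 ± 20.9 in MDAMB231 and 224 ± 24.7 in MDAMB468. BT549 and HCC1806 did not differ beyond their spread (edgeR adjusted p = 0.793), and the steps to MDAMB231 and MDAMB468 passed at 7.85e-05 and 0.000175. Of its listed exons, 49 bases overlap DLG4 on the other strand, and the sources used here do not say whether counting used strand.

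ANGPTL4 (ENSG00000167772, chromosome 19, 8363289 to 8374373, plus strand) had a 41.2-fold range in shNT cells. The libraries held 58.7, 62.7 and 55.2 CPM in BT549 and 7.21, 11.2 and 6.62 in HCC1806. MDAMB231 had 6.0, 3.90 and 7.78 CPM, and MDAMB468 1.25, 1.26 and 1.77. BT549 stood alone at the top, HCC1806 and MDAMB231 overlapped (edgeR adjusted p = 0.0952), and MDAMB468 lay below both. The middle step passed without HCC1806 shNT replicate 3 (0.0474) or MDAMB231 shNT replicate 3 (0.0192).

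PDK4 (ENSG00000004799, chromosome 7, 95583499 to 95596491, minus strand) was highest in MDAMB231, at 5.91, 5.81 and 5.30 CPM with shNT, and had 0 counts in all 3 BT549 shNT libraries. Taking 3 counts per library as the limit that a count of 0 allows, MDAMB231 was at least 81.3-fold higher than BT549, with counting error alone considered. MDAMB468 (0.869 ± 0.268 CPM) and HCC1806 (0.600 ± 0.457) did not differ beyond their spread (edgeR adjusted p = 0.469). MDAMB231 thus had the highest PPARGC1A and PDK4 and the lowest CPT1A of the 4 lines.

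**Figure D2:**
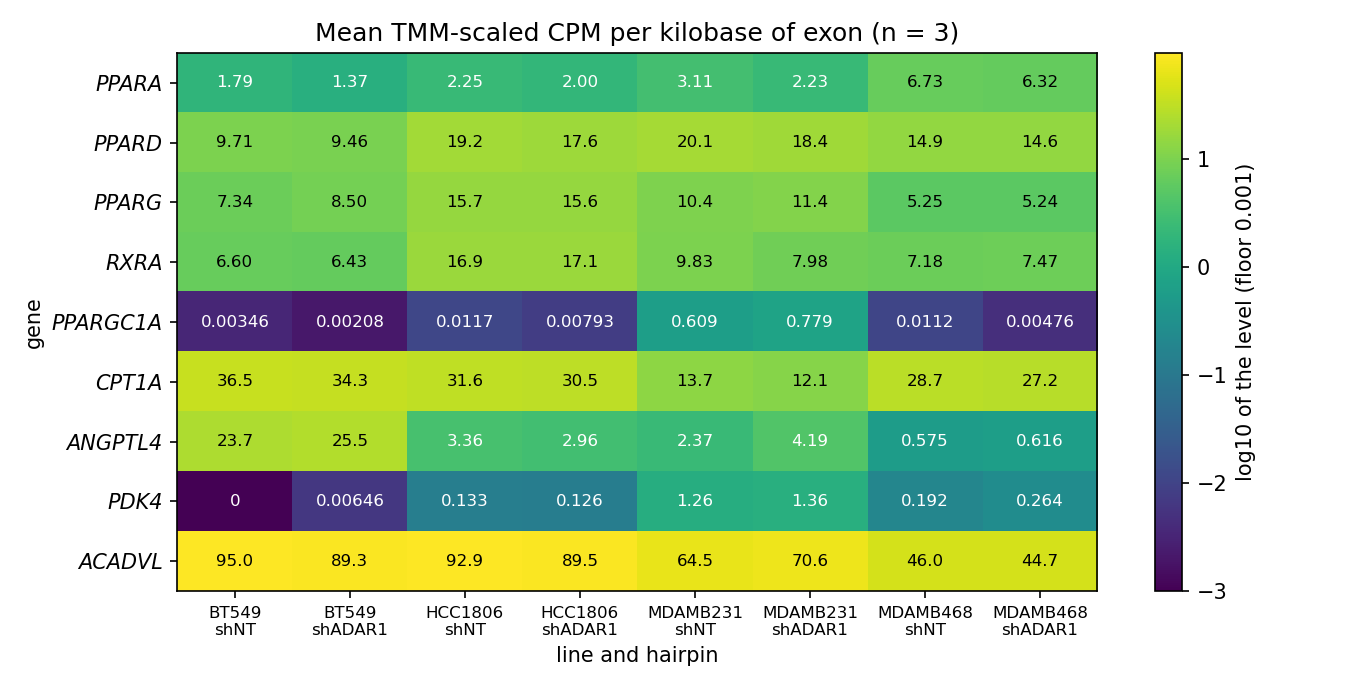
Mean TMM-scaled CPM per kilobase of listed exon for the 9 genes (rows) in the 8 groups (columns, 3 libraries each). Colour is the log10 of the level with a floor of 0.001, and the level itself is printed in each cell. ACADVL has the highest level in every column, and PPARGC1A and PDK4 are above 0.5 in the MDAMB231 columns only.

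For the hairpin comparison, the replicate numbers of the labels matter. Over all tested genes, same-numbered libraries of the 2 hairpins moved together around the group means of BT549, HCC1806 and MDAMB231. In MDAMB468 1 of the 3 correlations was 0.0651, and its numbers were not read as pairs. Results are given from the fit without pairing and, where a call differs, from a fit in which the replicate number is a block term within each line. In the latter MDAMB468 has its block terms too, which bears on the values over the 4 lines. The labels call the replicates biological without further description, and p-values measure the spread between these libraries.

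Without the block, 0.473% of all genes passed in BT549, with 0.0468% for HCC1806, 2.01% for MDAMB231 and 0.0375% for MDAMB468, while 2.96% passed for the mean of the 4 line effects, and 0.0234% for a difference between the lines' effects. Of the 9 genes, 0 passed by edgeR in each of the 4 lines, 1 passed for the mean and 0 for the difference. At an unadjusted p under 0.05, the counts among the 9 were 2, 0, 3 and 0 for the lines in that order, and 2 for the mean and 0 for the difference, beside 6.42%, 4.35%, 11.7%, 3.76%, 12.8% and 4.44% of all genes. Both in BT549 and for the mean, the 2 were PPARA and PDK4. PDK4 had 0 to 4 counts in the BT549 shADAR1 libraries and 0 with shNT, so its part in these counts is not interpretable. DESeq2 called 2 in MDAMB231, PPARA and ANGPTL4. With the block, the shares of all genes were 5.14% (BT549), 2.10% (HCC1806), 11.4% (MDAMB231) and 1.66% (MDAMB468), with 13.2% for the mean and 4.69% for the difference. The counts among the 9 were then 1, 0, 4, 0, 3 and 2. The median log2 change of the 9 genes without the block was lowest in HCC1806 at -0.11 and highest in MDAMB231 at 0.11, with BT549 at -0.04 and MDAMB468 at -0.03, beside 0.00 to 0.01 for all genes. In HCC1806 and MDAMB231 the middle value was that of PDK4, with SEs of 0.487 and 0.429. The MDAMB231 values ran from -0.48 for PPARA to 0.81 for ANGPTL4, so these medians do not show a shift of the 9 genes together.

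PPARA was the 1 gene of the 9 called for the mean of the lines without the block. In MDAMB231 its shADAR1 libraries held 26.1, 22.8 and 31.4 CPM, against 37.5, 32.3 and 42.0 with shNT. All 3 shADAR1 values lay below the shNT values, at 69.6%, 70.8% and 74.9% of the shNT library of the same number. The log2 fold change was -0.48 ± 0.138 (SE; edgeR adjusted p = 0.0863 without the block, 0.000485 with it). In BT549 the shADAR1 libraries held 15.2, 15.1 and 19 CPM and the shNT libraries 21.9, 19.4 and 22.9, again with no overlap. That change was -0.38 ± 0.137 (adjusted p = 0.419), and -0.39 ± 0.0819 with the block (adjusted p = 0.00562).

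In HCC1806, PPARA stood at 20.7, 22.6 and 28.6 CPM with shADAR1 and 28.7, 24.1 and 28.0 with shNT, so the arms overlapped. In MDAMB468, where the gene is most abundant, the values were 78.9, 69.9 and 78.4 CPM against 78.2, 76.3 and 87.4, which also overlapped. The log2 changes there were -0.16 ± 0.137 and -0.09 ± 0.135, neither past the threshold. Over the 9 pairs of the 3 lines read as paired, PPARA was lower with shADAR1 in 8. The mean of the 4 line effects was -0.28 ± 0.0683, or 17.5% lower (edgeR adjusted p = 0.0226, and 4.1e-05 with the block).

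The call on that mean without the block was lost in 6 of the 24 fits that left out 1 library: BT549 shADAR1 replicate 1 or 2, HCC1806 shADAR1 replicate 1, MDAMB231 shNT replicate 3, MDAMB468 shADAR1 replicate 2 or MDAMB468 shNT replicate 3. The value was then -0.25 or -0.26 and the adjusted p between 0.0503 and 0.0569. The test of a difference in the PPARA effect between the lines did not pass (edgeR adjusted p = 1.0, and 0.111 with the block), so a larger change in MDAMB231 and BT549 than in the other lines was not established.

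**Figure D3:**
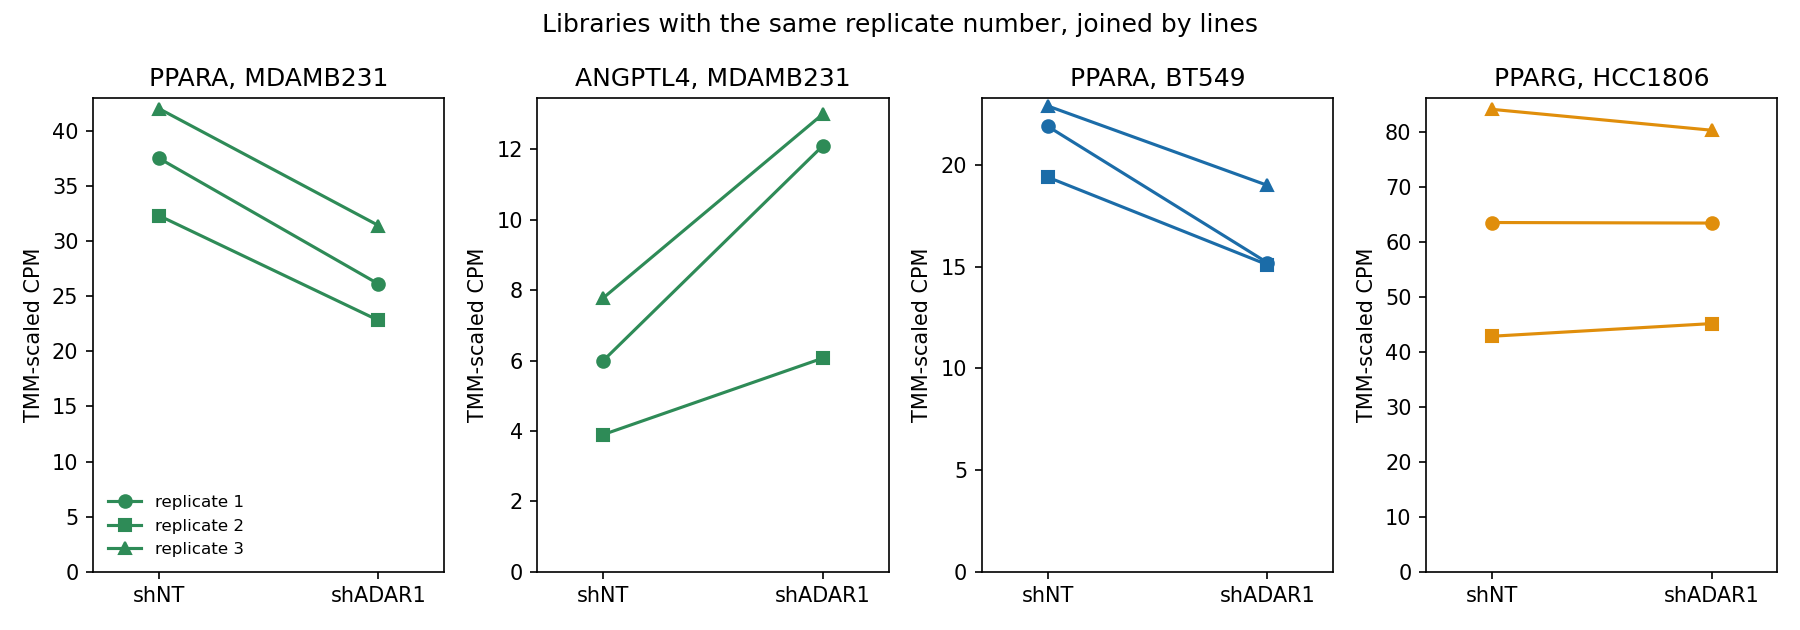
TMM-scaled CPM (vertical axes, from 0) with shNT and shADAR1 (horizontal axes) for PPARA and ANGPTL4 in MDAMB231, PPARA in BT549 and PPARG in HCC1806, with lines joining libraries of the same replicate number. PPARA falls in each of the 6 pairs shown and ANGPTL4 rises in each of 3, while PPARG in HCC1806 differs between replicate numbers, from 42.9 to 84.2 with shNT, and hardly between hairpins.

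The other receptors did not pass in any line. PPARD was lower with shADAR1 in 9 of 9 pairs of the paired lines, but by little: the line effects ran from -0.13 ± 0.109 in HCC1806 to -0.03 ± 0.11 in MDAMB468, and the mean was -0.08 ± 0.0548 (edgeR adjusted p = 0.624, and 0.0908 with the block). In MDAMB231 its arms did not overlap, at 79.0, 85.6 and 81.3 CPM against 92.7, 86.1 and 89.4. PPARG in BT549 held 34.2, 38.0 and 30.9 CPM with shADAR1 and 30.1, 31.2 and 27.8 with shNT, arms that overlapped by a single value. It was higher in 3 of 3 pairs there, with a log2 change of 0.21 ± 0.188 without the block. In the blocked fit the change was 0.21 ± 0.0624 (edgeR adjusted p = 0.0553), and neither fit passed the threshold. PPARG was also higher in 3 of 3 pairs in MDAMB231, at 0.12 ± 0.19 without the block (edgeR adjusted p = 0.917) and 0.12 ± 0.0644 with it (0.266). PPARA's share of the 3 receptors per kilobase was 7.08 ± 0.838% with shADAR1 in BT549, and 7.03 ± 1.38% in MDAMB231.

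RXRA differed between the hairpins in MDAMB231 when pairs were used. There it held 79.5, 92.0 and 87.3 CPM with shADAR1 against 102, 115 and 102 with shNT. No shADAR1 value reached the lowest shNT value, and the pairs stood at 78.1%, 80.2% and 85.3%. The log2 change was -0.30 ± 0.114 without the block (edgeR adjusted p = 0.242) and -0.30 ± 0.0589 with it (adjusted p = 0.00144). The effects in BT549, HCC1806 and MDAMB468 were -0.04, 0.01 and 0.06. With the block, the test that the 4 effects differ passed for RXRA (F = 7.46, edgeR adjusted p = 0.0361), while without it it did not (F = 2.01, adjusted p = 1.0).

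PPARGC1A in MDAMB231 held 6.95, 10.4 and 8.06 CPM with shADAR1, against 5.35, 7.99 and 6.52 with shNT. It was higher in 3 of 3 pairs, at 130%, 130% and 124%, but the arms overlapped and the log2 change of 0.35 ± 0.437 did not pass (edgeR adjusted p = 0.872). No fold is given for the other lines, where at most 8 counts were seen in a library.

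CPT1A was slightly lower with shADAR1. In MDAMB231 the libraries held 79.2, 79.7 and 79.7 CPM against 88.6, 92.7 and 88.4, a tight pair of groups without overlap. The log2 change was -0.18 ± 0.108 (edgeR adjusted p = 0.584), and -0.18 ± 0.0515 with the block (adjusted p = 0.0274). That call was lost when either library of any 1 of the 3 MDAMB231 pairs was left out, with adjusted p-values from 0.0603 to 0.191. CPT1A was lower in 9 of 9 pairs of the paired lines, and its mean effect over the lines was -0.10 ± 0.0533 (adjusted p = 0.473, and 0.0112 with the block).

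ANGPTL4 had the largest change of the 9 genes in MDAMB231. Its shADAR1 libraries held 12.1, 6.07 and 13 CPM, from 253, 316 and 556 counts, against 6.0, 3.90 and 7.78 with shNT, from 65, 175 and 352 counts. Replicate 2 was low in both arms, so that the arms overlapped, but each shADAR1 library was above its same-numbered shNT library, at 202%, 156% and 167%. The log2 change was 0.81 ± 0.259 without the block (edgeR adjusted p = 0.135) and 0.77 ± 0.107 with it (adjusted p = 3.34e-05). Without the block it passed when shADAR1 replicate 2 was left out, at 1.10 (adjusted p = 0.0104). The blocked call, like those on PPARA and RXRA, held when either library of any 1 of the 3 MDAMB231 pairs was left out. Both libraries of a pair gave nearly the same fit, since the block then sets the pair aside, so these are 3 checks.

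In BT549, where ANGPTL4 was most abundant, the hairpins gave 66.2, 60.5 and 63.2 CPM against 58.7, 62.7 and 55.2, a log2 change of 0.10 ± 0.234. The changes in HCC1806 and MDAMB468 were -0.19 ± 0.247 and 0.10 ± 0.304, and none of these 3 passed. With the block the 4 effects differed (F = 15.0, edgeR adjusted p = 0.00283), and without it the test did not pass (F = 2.80, adjusted p = 1.0). The blocked mean over the lines, 0.20 ± 0.0564 (adjusted p = 0.0199), therefore averages unequal effects. Adipocyte markers summed to between 1.08 and 2.11 CPM in the MDAMB231 shADAR1 libraries and between 0.575 and 0.824 CPM with shNT, with ADIPOQ at 0 in all 6. Mesenchymal markers summed to between 5150 and 6040 CPM and between 4610 and 5240 CPM in the same groups. The part of either in the ANGPTL4 result was not tested.

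PDK4 and ACADVL did not pass in any line. PDK4 in MDAMB231 held 6.61, 5.71 and 6.09 CPM with shADAR1 and 5.91, 5.81 and 5.30 with shNT, a log2 change of 0.11 ± 0.429. In BT549 its counts were 0, 2 and 4 with shADAR1 and 0, 0 and 0 with shNT, and no fold is given. ACADVL in MDAMB231 held 377, 298 and 356 CPM against 331, 290 and 320, higher in 3 of 3 pairs with overlapping arms (0.13 ± 0.0989, edgeR adjusted p = 0.703). In the other lines its changes ran from -0.09 to -0.04.

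**Figure D4:**
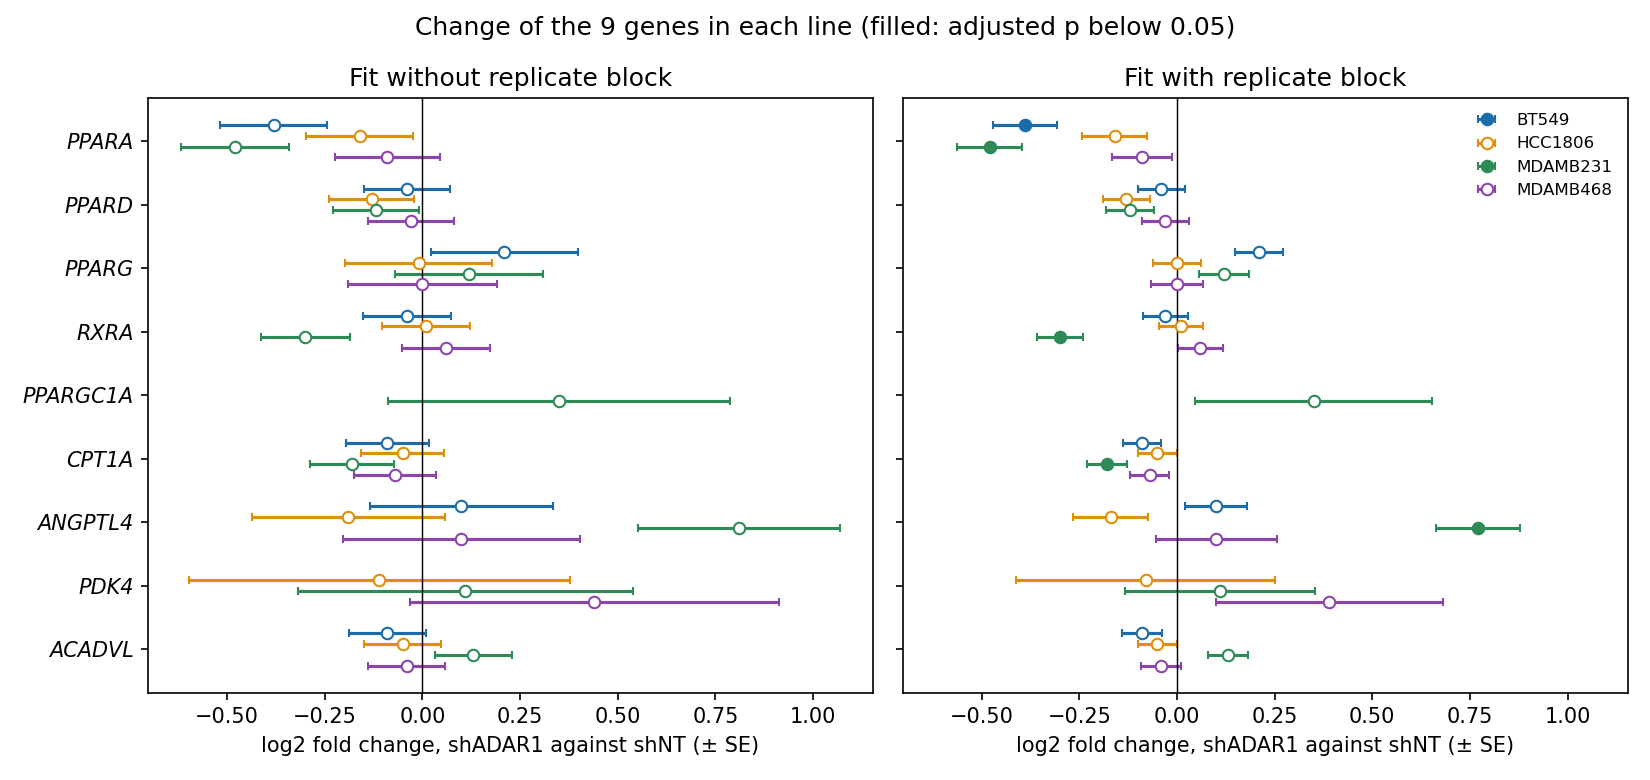
Log2 fold change of shADAR1 against shNT (horizontal axes, ± SE) for the 9 genes (rows) in the 4 lines (colours), without the replicate block on the left and with it on the right. Filled points passed an adjusted p of 0.05; PPARGC1A outside MDAMB231 and PDK4 in BT549 are left out for low counts. The values hardly move between the panels while the error bars shorten, and the filled points are PPARA in BT549 and PPARA, RXRA, CPT1A and ANGPTL4 in MDAMB231, all on the right.

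The surrounding pathway was read from 5 lists with 78 genes in all, of which 74 were tested. The first list holds receptor partners and coregulators. Of its 14 tested genes, 2 passed in MDAMB231 without the block, beside 2.01% of all genes. ESRRA, an orphan receptor that works with PGC-1alpha on mitochondrial genes, was higher at 40.2, 51.9 and 40.0 CPM against 26.1, 34.8 and 32.3, with no overlap (log2 change 0.50 ± 0.11, edgeR adjusted p = 0.0138). NCOR1, a corepressor of nuclear receptors, was lower, at -0.31 ± 0.0758 (adjusted p = 0.0322). For the mean of the lines, ESRRA was higher (0.25 ± 0.0542, adjusted p = 0.0072). None of the 14 passed in BT549, HCC1806 or MDAMB468 in that fit, beside 0.473%, 0.0468% and 0.0375% of all genes.

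With the block, ESRRA (0.28 ± 0.0675, edgeR adjusted p = 0.0173) and the acetyltransferase gene CREBBP (0.24 ± 0.0659, adjusted p = 0.0342) were among the genes higher in BT549. In MDAMB231 ESRRA and CREBBP were higher and NCOR1 and LPIN1 lower, CREBBP and LPIN1 there being named after their values were seen. The ESRRA effect differed between lines in that fit (edgeR adjusted p = 0.0434). The list's median change ran from -0.01 in HCC1806 to 0.03 in BT549, close to that of all genes.

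Of the 21 mitochondrial oxidation genes, 0 passed in any line or for the mean without the block. Of all genes, 0.0375% to 2.01% passed per line and 2.96% for the mean. A count of 0 in a list of this size is therefore near the share of all genes. At the smallest p-values for the mean, DECR1, which handles unsaturated chains, had a log2 change of 0.18 ± 0.0509 (edgeR adjusted p = 0.058) and the thiolase ACAA2 one of 0.19 ± 0.0704 (adjusted p = 0.216). With the block, DECR1 passed for the mean (adjusted p = 0.00196), and ACADSB (-0.41 ± 0.117) and CPT1C (-0.26 ± 0.0818) were lower in MDAMB231. The list's medians without the block were 0.02, 0.03, 0.03 and 0.11 in BT549, HCC1806, MDAMB231 and MDAMB468, and 17 of the 21 values were positive in MDAMB468.

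Of the 10 peroxisomal genes tested, 0 passed without the block, where at most 2.96% of all genes passed in a comparison. SCP2 and HSD17B4 had the smallest p-values for the mean, at -0.09 ± 0.0605 and -0.10 ± 0.0839 (edgeR adjusted p = 0.579 and 0.737). HSD17B4 averaged only 0.345 CPM in HCC1806 with shNT, from 9 to 18 counts a library. In BT549, MDAMB231 and MDAMB468 with shNT it averaged 110, 69.2 and 113 CPM. Its mean over the lines gives the low HCC1806 counts the same weight as the others. The list's median was -0.16 in MDAMB231, where 2 of the 10 values were positive, and 0.15 in MDAMB468, where 7 were, beside -0.03 in BT549 and -0.02 in HCC1806. With the block, HSD17B4, the multifunctional enzyme of peroxisomal oxidation, was lower in BT549 (-0.26 ± 0.0609) and MDAMB231 (-0.33 ± 0.0644), and the carnitine acetyltransferase gene CRAT was lower in MDAMB231 (-0.30 ± 0.0927).

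Of 18 other PPAR target genes tested, 0 passed without the block, again beside at most 2.96% of all genes. FABP3, a fatty acid binding protein, and UCP2, an inner mitochondrial membrane carrier, had mean effects of -0.28 ± 0.116 (edgeR adjusted p = 0.266) and -0.20 ± 0.107 (adjusted p = 0.464). With the block UCP2 was lower in BT549 (-0.30 ± 0.0776), in MDAMB231 (-0.46 ± 0.0832) and for the mean, and its effects differed between lines (adjusted p = 0.0347). PLIN2, the lipid droplet coat protein, was higher in MDAMB231 by 0.22 ± 0.063 (edgeR adjusted p = 0.0283). Of the 18 genes, PLIN2 was thus the 1 called higher in that line with the block and UCP2 the 1 called lower, beside 11.4% of all genes called. PPAR activity was not tested. The list's medians ran from 0.05 in BT549 to 0.13 in MDAMB231.

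The 11 genes of pyruvate dehydrogenase, its kinases and phosphatases and the mitochondrial pyruvate carrier also had 0 calls without the block. At most 2.96% of all genes passed there. MPC1, a carrier subunit, and PDP1, a phosphatase that reactivates the complex, had mean effects of 0.25 ± 0.082 and 0.26 ± 0.0856 (edgeR adjusted p = 0.114 and 0.117). With the block, 7 of the 11 passed for the mean, 6 higher and 1 lower, beside 13.2% of all genes in that fit. PDP1 was higher (adjusted p = 4.27e-06), as was the acetyltransferase subunit DLAT (0.12 ± 0.0246), and the complex's binding protein PDHX was lower (-0.15 ± 0.0294). PDK1, a sister kinase of PDK4, was higher in MDAMB231 (0.31 ± 0.0811), as were PDP1 (0.37 ± 0.0604) and MPC1 (0.39 ± 0.12), the last named after its value was seen, while PDHX was lower there (-0.23 ± 0.0627). In BT549 PDP2 and DLAT were higher. PDP1 passed in MDAMB468 as well, but only with the block, in the line whose numbers were not read as pairs. The higher genes thus include PDK1, which opposes the complex, and PDP1 and PDP2, which restore it. The list's medians were 0.08, 0.04, 0.07 and 0.05 in the 4 lines, beside 0.00 to 0.01 for all genes. With the block 0 of the genes of all 5 lists passed in HCC1806, beside 2.10% of all genes.

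**Figure D5:**
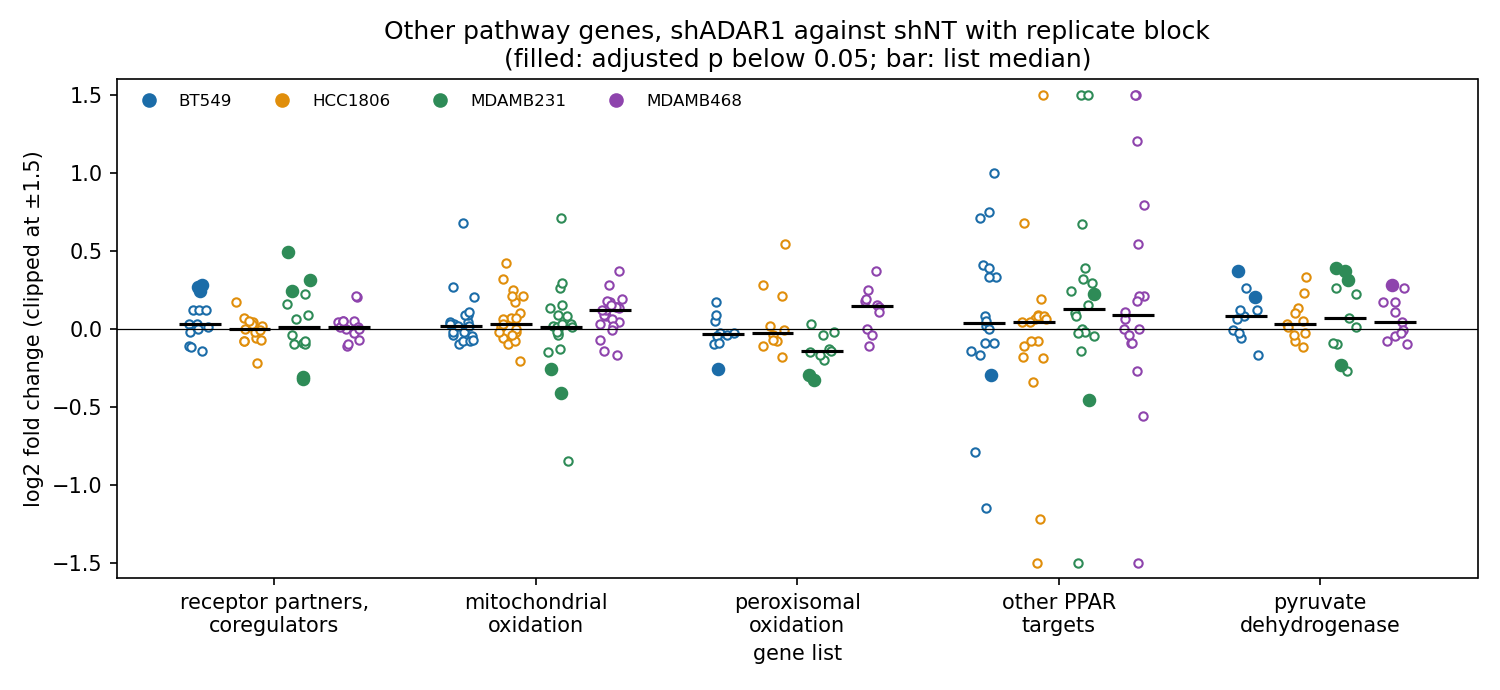
Log2 fold change of shADAR1 against shNT with the replicate block (vertical axis, values beyond ±1.5 drawn at the edge) for the tested genes of the 5 lists (horizontal axis), with the 4 lines in colour. Filled points passed an adjusted p of 0.05 and black bars are list medians. Most points are open and the medians lie near 0, with the peroxisomal list lowest in MDAMB231 at -0.15 and highest in MDAMB468 at 0.15.

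Across the 24 libraries, the genes whose log2 CPM followed each of the 9 most closely were found among 11000 tested genes. PPARA was closest to MAP3K5 (Pearson r = 0.977) and TRIM33 (0.976), PPARD to HGS (0.974) and TMEM154 (0.962), PPARG to ORC2 (0.967) and RHOBTB3 (0.949), and RXRA to PTGR1 (0.966) and NIPA1 (0.959). CPT1A was closest to OTUB1 (0.982) and SLFN11 (0.979), ANGPTL4 to MCOLN1 (0.981) and APMAP (0.975), and ACADVL to RAD23B (0.970) and TNPO1 (0.969). These values describe 24 libraries from 4 lines, so they rest mostly on line differences, and no gene of the 9 appears among the closest of another. PPARGC1A and PDK4 were too low for such a comparison.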

How the data were processed

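Total RNA from 24 libraries, 3 for each of 8 groups of line and hairpin, was sequenced after ribosomal depletion, per the labels' protocols. For each library the authors deposited a table of 37416 genes with coordinates, exonic length, counts, CPM and RPKM. The submitters' processing notes name bcl2fastq, STAR, Subread, featureCounts and edgeR. Their roles, the build, the annotation and the use of strand are not given in the sources used here. All 9 genes have the starts and ends of GENCODE 29 (GRCh38). The deposited counts were used for every test. The deposited CPM and RPKM values, which the authors had normalised to library total and to length, could be recomputed from the counts to within 4.7e-11 and 1.2e-10, and were not used further.

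Counts were fitted with edgeR 4.0.16 (R 4.3.3): filterByExpr left 21352 genes, TMM factors ran from 0.924 to 1.12, and 1 coefficient per group was tested with the 2-sided quasi-likelihood F test, with Benjamini-Hochberg adjustment over all genes and a threshold of 0.05. The SE is the log2 fold change divided by the square root of F. On counts simulated for MDAMB231, with 200 of 20801 genes changed by 1 on the log2 scale, 92% of the changed genes were called and 6 of 190 calls were false. The changed genes were drawn from the more abundant ones, and no effect shared by replicate number was simulated. The 92% therefore does not hold for smaller changes or for genes with low counts. Total counts per library ran from 10370645 to 97218217, and intervals and limits from counts cover counting error only. Alternatives were RLE scaling, no filter on low counts, DESeq2 1.42.0, only the 6 libraries of a line, leaving out each library in turn, and the replicate number as a block. After the data had been seen, the blocked fit was repeated without each MDAMB231 library.

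Pairing was judged from the correlations of same-numbered libraries' deviations from their group means: 0.139, 0.158 and 0.25 in BT549, 0.242, 0.332 and 0.443 in HCC1806, 0.204, 0.348 and 0.149 in MDAMB231, and 0.165, 0.166 and 0.0651 in MDAMB468. Every value above 0.1 in a line was required.

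The 9 genes and the lists were chosen with earlier results of these data known. The 9 genes and ADAR were always named; from each list up to 3 genes past the threshold with the smallest p were named per comparison, or, where fewer than 2 passed, the 2 with the smallest p for the mean. The result of 1 list gene is not reported here. The genes of closest pattern were the 2 with the highest Pearson r, among tested genes whose mean log2 CPM reached 2.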

Additional observations from a re-analysis of the deposited data

Results flagged for a closer look

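RXRA and ANGPTL4 had knockdown effects that differed between the 4 lines when replicate numbers were used as a block. For ANGPTL4 the joint test by edgeR had an adjusted p of 0.00283, with log2 changes of 0.77 in MDAMB231, 0.10 in BT549, -0.17 in HCC1806 and 0.10 in MDAMB468. For RXRA the adjusted p was 0.0361, with changes of -0.30, -0.03, 0.01 and 0.06 in the same order. In both genes the change furthest from 0 was that of MDAMB231. The joint test does not say which line differs, and MDAMB231 was not tested against the others. Without the block neither joint test passed (adjusted p = 1.0 for both). MDAMB468, whose replicate numbers were not read as pairs, enters the blocked test with its block terms.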

How the results depend on the processing

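The replicate block moved the calls most. It gave 1 of the 9 genes in BT549, 4 in MDAMB231, 3 for the mean of the lines and 2 for the difference between lines. Over all genes it gave 1098 in BT549, 448 in HCC1806, 2437 in MDAMB231, 354 in MDAMB468, 2820 for the mean and 1002 for the difference, against 101, 10, 429, 8, 632 and 5 without it. DESeq2 called 2 of the 9 genes in MDAMB231, and 279, 40, 786 and 42 genes in the 4 lines and 1045 for the mean. The 6 libraries of a line alone gave 226, 0, 117 and 21 genes. With no filter on low counts, HCC1806 had 18 genes and the difference 22. Leaving out 1 library at a time gave 61 to 122 genes in BT549, 4 to 15 in HCC1806, 202 to 526 in MDAMB231, 3 to 13 in MDAMB468 and 2 to 14 for the difference, and 0 to 1 of the 9 genes in MDAMB231 and for the mean. The 1 gene for the mean is PPARA; those in MDAMB231 are PPARA, without HCC1806 shADAR1 replicate 3 or MDAMB231 shADAR1 replicate 3, and ANGPTL4, without MDAMB231 shADAR1 replicate 2. The blocked count of 4 in MDAMB231 became 3 when either library of any 1 MDAMB231 pair was left out. PPARGC1A between BT549 and MDAMB468, at no more than 8 counts a library, ran from -2.03 without MDAMB468 shNT replicate 3 to 0.33 without replicate 1, and the cause was not tested. RLE scaling changed no call on the 9 genes. Low counts of the genes themselves limit what can be said of PPARGC1A outside MDAMB231 and of PDK4 in BT549.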
